A study of Caenorhabditis elegans with 2 samples.

Results

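The 10 genes described here encode core proteins of DNA replication in Caenorhabditis elegans: the helicase subunits mcm-2, mcm-3, mcm-4, mcm-5, mcm-6 and mcm-7, the helicase factor mcm-10, the sliding clamp pcn-1, and the single-strand binding subunits rpa-1 and rpa-2. They were chosen by name, out of 19973 coding genes, and the sites looked at were peak summits from 1000 bp upstream to 200 bp downstream of each annotated 5' end. The sites came from chromatin immunoprecipitation and sequencing of C17E4.6, a protein of the VPS72 (YL1) family, whose relatives elsewhere are subunits of remodellers that deposit the histone H2A.Z. The single group was strain RW12293, in which CRISPR put TY1, EGFP and 3xFLAG tags on the C17E4.6 gene at its own locus. Whole young adults were collected 62 hours after starved first-stage larvae were fed, an antibody to GFP was used for the pull-down, and there were 2 biological replicates. Each sample mixed germ line and soma, and no pull-down from untagged worms was analysed here. The lists give no reads, so the depth is unknown, and the replicates are given side by side with no error or test.

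Before a cell copies its genome, the origin recognition complex, CDC-6 and CDT-1 load rings of the mcm-2 to mcm-7 proteins around DNA, the step called licensing. MCM-10 and other factors then help turn the loaded ring into a running helicase, replication protein A covers the single strands that it exposes, and the clamp PCNA, encoded by pcn-1, tethers the polymerases. In adult worms most dividing cells are in the germ line. Across animals, genes of this kind often have promoters with E2F sites and with cell cycle homology regions (CHR elements). In the worm, EFL-1 with DPL-1 and LIN-54, which belong to the DREAM complex, are known to bind such elements.

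Every one of the 10 genes had a summit upstream of its 5' end in the combined ranked list, which the authors made from both replicates. In that list 56.9% of all coding genes had a summit somewhere in the window. Of the 10 genes, 5 passed the authors' threshold. The 5 of 10 with a summit in the combined thresholded list were rpa-2, pcn-1, mcm-2, mcm-4 and mcm-10, against 3.59% of all coding genes (717 of 19973). The conservative thresholded list also held 5, with rpa-1 in place of mcm-10, against 3.42% of coding genes. Of the replicates' own thresholded lists, that of replicate 1 held 4 (rpa-2, pcn-1, mcm-2 and mcm-10), against 2.25% of coding genes, and that of replicate 2 held 3 (rpa-2, pcn-1 and mcm-2), against 1.77%. Only rpa-2, pcn-1 and mcm-2 had a summit in all 8 lists, and the share of all coding genes that did was not worked out. The genes were chosen with earlier results of these data known, so these shares are a description.

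The ranked lists, which have no threshold, place each of the 10 genes among all coding genes. These lists are long, and 56.9% of coding genes had some summit in the combined one, 45.6% in that of replicate 1 and 48.2% in that of replicate 2. By the signal that the authors gave each peak, on a scale the files do not state, the strongest combined summits of the 10 genes ran from 43.5 at mcm-5 to 327 at rpa-2, with a median of 64.2. The median over all coding genes was 16.1, with genes lacking a summit counted as 0. Only 0.0200% of coding genes had a higher combined signal than rpa-2, and 8.85% had a higher one than mcm-5, the lowest of the 10. In replicate 2 the places were lower, with 16.4% of coding genes above mcm-7 and 12.1% above mcm-3, and mcm-10 and rpa-1 were unlisted. For mcm-5 the share was 30.7%, but its strongest summit in replicate 2 lay 950 bp upstream, at another site. In replicate 1 alone the median was 41.0 for the 10 genes. In replicate 2 it was 21.8, with the unlisted mcm-10 and rpa-1 counted as 0. The median over all coding genes was 0 in both. Over only the coding genes with a summit, the medians were 27.0 combined, 17.8 in replicate 1 and 15.4 in replicate 2. The 15.4 leaves out unlisted genes and the 21.8 does not, so the 2 are on unlike bases.

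**Figure D1:**
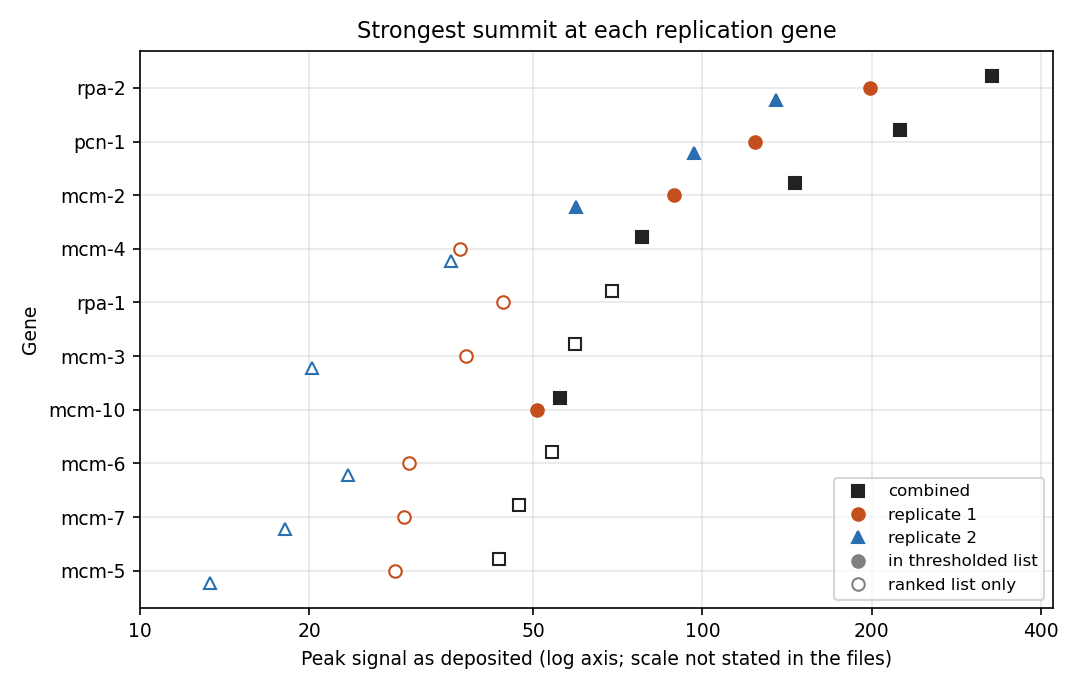
Signal of the strongest summit at each of the 10 genes (x axis, log scale, as deposited) in the combined list (squares), replicate 1 (circles) and replicate 2 (triangles); filled symbols also passed the authors' threshold in that list. The top 3 genes, rpa-2, pcn-1 and mcm-2, are filled in all of these lists, and mcm-10 and rpa-1 have no replicate 2 symbol.

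Of the 6 helicase subunits, mcm-2 stood highest and the other 5 followed at a lower level. The mcm-2 gene (WBGene00003154) lies at chrII:12001509-12006625 on the minus strand. Its peak (chrII:12006711-12006994, assembly ce11) had its summit 228 bp upstream of the 5' end, in intergenic sequence, with a combined signal of 146 and place 105 among all coding genes. It had signals of 89.1 in replicate 1 and 59.6 in replicate 2, and the replicates' summits lay 8 bp apart. The 151 bp around it is shown with those of mcm-3 and mcm-7, because all 3 place an E2F match (GCGCGAA, which is TTCGCGC on the other strand) within 9 bp of a CHR match. The sequences are those of the RefSeq genome of the same assembly, read 5′ to 3′ on the strand of the gene with the combined summit at the centre, and capitals mark matches to the E2F and CHR motifs. They cover chrII:12006778-12006928 (minus strand) for mcm-2, chrV:15059645-15059795 (minus strand) for mcm-3 and chrV:4346977-4347127 (plus strand) for mcm-7.
mcm-2: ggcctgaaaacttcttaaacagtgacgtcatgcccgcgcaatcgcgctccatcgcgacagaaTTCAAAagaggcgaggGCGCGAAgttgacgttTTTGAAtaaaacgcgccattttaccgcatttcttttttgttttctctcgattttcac
mcm-3: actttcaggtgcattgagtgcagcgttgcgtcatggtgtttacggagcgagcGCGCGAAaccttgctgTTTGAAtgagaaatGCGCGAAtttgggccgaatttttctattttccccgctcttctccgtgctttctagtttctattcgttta
mcm-7: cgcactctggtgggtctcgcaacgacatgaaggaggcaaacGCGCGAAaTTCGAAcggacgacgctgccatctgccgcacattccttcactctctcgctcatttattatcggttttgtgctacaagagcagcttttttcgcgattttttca

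Below the threshold, mcm-3 (WBGene00003155, chrV:15056719-15059599, minus strand) came nearest to it by score in the combined ranked list, while in the conservative ranked list mcm-6, with 633, scored above mcm-3, with 555. A peak's score tracks its irreproducible discovery rate (IDR), and no peak of the thresholded list scored under 830, which stands for an IDR of 0.01. The mcm-3 summit (chrV:15059720), 121 bp upstream, had a combined signal of 59.4 and a score of 755, an IDR of 0.0151. Its signals were 37.9 in replicate 1 and 20.2 in replicate 2, and the summit of replicate 2 lay 104 bp from that of replicate 1, only 21 bp upstream of the gene. The site lies between mcm-3 and the divergent gene C25D7.15, whose 5' end is 88 bp from the summit.

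The other helicase subunits below the threshold were mcm-6 (WBGene00003158, chrIII:9794367-9798644, plus strand), mcm-7 (WBGene00003159, chrV:4347166-4349768, plus strand) and mcm-5 (WBGene00003157, chrIII:4288264-4291266, minus strand). The mcm-6 summit (chrIII:9794113), 254 bp upstream, had a combined signal of 54.0 and a score of 569 (IDR 0.0425). Its signals were 30.1 in replicate 1 and 23.4 in replicate 2, and the summit of replicate 1 lay farther out, 355 bp upstream. The mcm-7 summit (chrV:4347052), 114 bp upstream, had a combined signal of 47.1 and a score of 396 (IDR 0.111), with 29.4 in replicate 1 and 18.1 in replicate 2. Both genes face away from a neighbour within 1000 bp, R10E11.9 for mcm-6 and hpo-18 for mcm-7, and these lay 471 and 627 bp from the summit. The mcm-5 summit (chrIII:4291505), 239 bp upstream, was the weakest of the 10 at 43.5, with a score of 151 (IDR 0.431). Replicate 1 had a signal of 28.4 there, while the strongest summit of replicate 2 in the window, 13.3, lay 950 bp upstream and was thus another site. In the replicates' own ranked lists, the scores of mcm-3, mcm-5, mcm-6 and mcm-7 lay between 31 and 408.

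The mcm-10 gene (WBGene00012935, chrIII:11317570-11326664, plus strand), which encodes a factor that helps activate the helicase, had a peak in replicate 1 that replicate 2 did not list. The peak (chrIII:11317116-11317399) had a combined signal of 55.9 and a score of 884, just above the threshold (IDR 0.00740), and it ranked 930 of 1017. Replicate 1 gave 50.7 with a score of 1000, the cap, and the nearest summit in the ranked list of replicate 2 was 2745 bp away. In the conservative ranked list the same peak had a score of 57. The summit lay 312 bp upstream of mcm-10, in an intron of teg-1, a gene on the opposite strand that overlaps the start of mcm-10. Its sequence is shown because it holds another form of the E2F match, TTGCCGC, with a CHR match 13 bp further on, and it covers chrIII:11317183-11317333 on the plus strand.
mcm-10: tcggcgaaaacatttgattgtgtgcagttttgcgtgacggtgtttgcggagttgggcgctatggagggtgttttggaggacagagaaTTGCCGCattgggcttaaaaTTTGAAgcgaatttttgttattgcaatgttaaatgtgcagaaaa

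The clamp gene pcn-1 (WBGene00003955, chrIV:4047937-4049448, minus strand) had one of the strongest promoter peaks of the experiment. The combined peak (chrIV:4049659-4049752) spanned 94 bp, while the replicates' own peaks here spanned 280 bp in replicate 1 and 244 bp in replicate 2. The combined summit lay 248 bp upstream, with a signal of 225, rank 23 of 1017 and place 23 among all coding genes. The signals were 124 in replicate 1 and 96.7 in replicate 2, with ranks of 30 of 570 and 32 of 414 in their thresholded lists. The summits of the replicates were 52 bp apart, and that of replicate 2 was the more distant from the gene. The sequence (chrIV:4049621-4049771, minus strand) is shown because E2F and CHR matches alternate in it, CHR, E2F, CHR and E2F, all on the side of the summit towards the gene.
pcn-1: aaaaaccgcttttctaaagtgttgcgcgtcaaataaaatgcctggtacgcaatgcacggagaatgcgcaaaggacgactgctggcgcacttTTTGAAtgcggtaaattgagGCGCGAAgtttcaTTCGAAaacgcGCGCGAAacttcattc

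Replication protein A gave unlike results for its large and middle subunits. At rpa-1 (WBGene00017546, chrII:7664582-7667110, plus strand), the large subunit, the summit (chrII:7664024) lay 558 bp upstream with a combined signal of 69.0. Its score was 596 (IDR 0.0367) in the combined ranked list, and 831 in the conservative list, which put it just inside that threshold. Replicate 1 had a signal of 44.1 and a score of 820, just below its threshold, and the nearest listed summit of replicate 2 was 993 bp away. The summit was closer to the divergent gene F18A1.7, at 270 bp, than to rpa-1. The sequence (chrII:7663949-7664099, plus strand) is shown for its different E2F form, GCGGGAA on the gene's strand, and its wide spacing of 30 bp from the CHR match.
rpa-1: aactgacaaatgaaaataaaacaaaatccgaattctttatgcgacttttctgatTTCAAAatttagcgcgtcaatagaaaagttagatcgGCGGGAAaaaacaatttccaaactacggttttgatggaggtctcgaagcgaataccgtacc

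The peak at rpa-2 (WBGene00019767, plus strand), the middle subunit, had the highest signal of the 10 genes and the 5th highest of the combined thresholded list. It spans chrI:4769535-4769712, with its summit 674 bp upstream of rpa-2 and a signal of 327. Its signals were 199 in replicate 1 and 135 in replicate 2, with summits 23 bp apart. By these signals rpa-2 took place 5 among all coding genes in replicate 1 and place 8 in replicate 2. The summit was intergenic, and a long noncoding RNA gene, M04F3.7, begins 555 bp to its other side. A second, weak summit at rpa-2 lay 39 bp downstream of the 5' end, with a combined signal of 38.4 and a score of 55. Apart from rpa-2, 5688 coding genes had a summit in all 3 ranked lists, and those among the 10 described genes were left out. Nearest to rpa-2 in the 3 log2 signals were mog-4, rpl-35 and cdc-48.1, at distances of 0.09, 0.14 and 0.18. For mog-4, an RNA helicase gene, the signals were 343 combined, 201 in replicate 1 and 140 in replicate 2.

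The helicase gene mcm-4 (WBGene00003156, minus strand) passed in the combined list although it passed in neither replicate alone. Its peak, chrI:2321796-2322079, had a summit 121 bp upstream, a signal of 78.1 and rank 539 of 1017. Replicate 1 gave 37.0 with a score of 705 and replicate 2 gave 35.7 with a score of 458. These are the closest replicate signals of the 8 genes with a summit in both, and the summits were 5 bp apart. Its window held the most matches of the 10, with 3 to E2F and 3 to CHR.

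**Figure D2:**
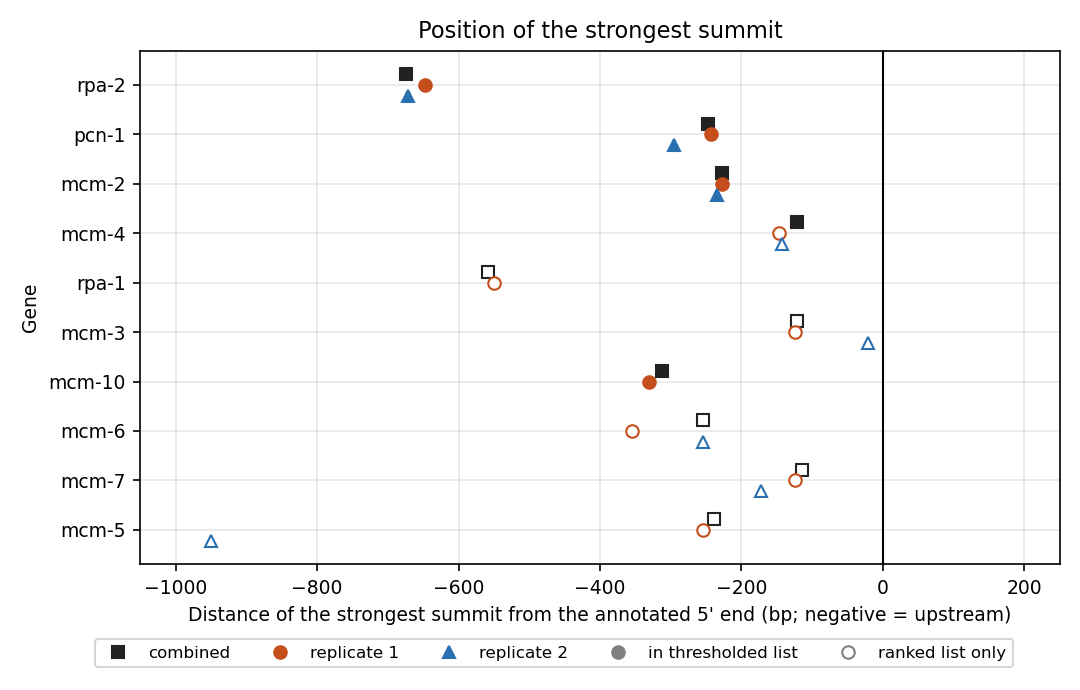
Distance of the strongest summit from the annotated 5' end (x axis, bp, negative is upstream) for the 10 genes in the combined list (squares), replicate 1 (circles) and replicate 2 (triangles); filled symbols passed the threshold. Combined summits lie between 114 and 674 bp upstream, rpa-1 and rpa-2 lie farthest out, and the replicate 2 symbol of mcm-5 at 950 bp is apart from the rest.

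The rpa summits lay farther upstream than those of the helicase genes. The combined summits of mcm-2 to mcm-7 lay 114 to 254 bp upstream, although single replicates placed mcm-3 at 21 bp, mcm-6 at 355 bp and mcm-5 at 950 bp, and the median over the 10 genes was 244 bp. Both rpa summits lay more than 500 bp upstream, and a window that ended there held a thresholded summit at 4 of the 10 genes, against 2.79% of coding genes. Of the 10 summits, 9 were intergenic, and 4 lay in the window of another coding gene as well. These shares were not worked out for the summits of all coding genes, so the counts only describe the 10. Annotated 5' ends of worm genes can be trans-splice sites downstream of the true start, so the distances are to the annotation. Assigning each peak to the coding gene with the nearest 5' end left the same 5 genes in the combined thresholded list.

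The signal was higher in replicate 1 at each of the 8 genes with a summit in both ranked lists. Their log2 ratio of replicate 1 to replicate 2 ran from 0.05 at mcm-4 to 1.09 at mcm-5, where the 2 summits are different sites. This was also the direction at 63.3% of the 5953 coding genes with summits in both, whose median log2 ratio was 0.22 (SD 0.63 across genes). The files do not state that the scale is common to the lists. A summit within 100 bp of the combined one was found in both replicates at 6 genes, mcm-2, mcm-3, mcm-4, mcm-7, pcn-1 and rpa-2. The share of all coding genes matched in this way was not worked out, so the count does not set these genes apart. That of mcm-3 was exactly 100 bp off in replicate 2, and that of mcm-6 was 1 bp beyond the limit in replicate 1. No listed summit means that the authors' list has none, not that the protein was absent.

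Most of the 10 genes had E2F and CHR matches around their summits. The genes and motifs were chosen with earlier results of these data known, so the shares below are a description. Within 75 bp of the combined summit, 9 of the 10 windows held an E2F match and the same 9 held a CHR match, the exception being rpa-2, which held neither. The E2F motif searched was any of the words TTCCCGC or else TTCGCGC or else TTGCCGC or else TTGGCGC, and the CHR motif was TTTGAA or else TTCGAA, on both strands. No word of one motif contains a word of the other. Among all 1017 thresholded summits, 19.9% had an E2F match, 32.4% a CHR match and 9.44% both. Restricted to the 517 thresholded summits in a coding gene's window, these shares were 29.0%, 39.1% and 15.7%. At the strongest ranked summits of all coding genes (10086 distinct summits) they were 9.12%, 36.3% and 4.02%. The CHR words are common in worm DNA, and 45.7% of windows of the same length centred 125 bp upstream of a coding 5' end held one, while 5.16% held an E2F match. The median GC content was 45.0% in the 10 windows and 46.4% in all thresholded windows, but 39.7% in those of all coding genes.

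**Figure D3:**
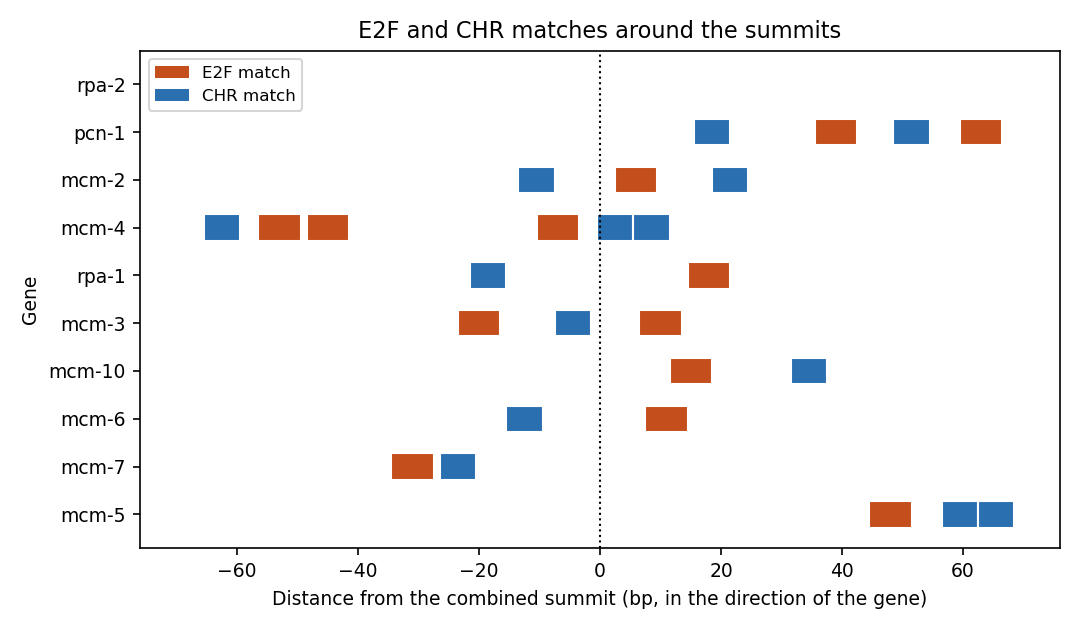
Matches to the E2F (orange) and CHR (blue) motifs within 75 bp of the combined summit of each gene (x axis, bp from the summit in the direction of the gene); bar lengths are the motif lengths. Each gene except rpa-2 has at least 1 bar of each colour.

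The spacing of the E2F and CHR matches varied among the 9 genes. The fewest bases between an E2F and a CHR match ran from 1 at mcm-7 to 30 at rpa-1, with a median of 8 over the 9 genes, and were 5 at pcn-1 and mcm-5, 8 at mcm-3, 9 at mcm-2 and 17 at mcm-6. Of the 96 thresholded windows with both motifs, 66 also had a pair within 30 bp, the widest spacing among the 9 genes, so a short spacing was common wherever both occurred. The form TTCGCGC was found at 6 genes, mcm-2, mcm-3, mcm-4, mcm-6, mcm-7 and pcn-1, against 8.46% of all thresholded windows, and TTTGAA at 8, against 25.2%. The other motifs searched were less common: CTGCGTCT (EOR-1) was found at mcm-6 alone and in 7.47% of thresholded windows, GAGAGA at mcm-2 and mcm-7 and in 19.4%, and TATAAA at mcm-5 and in 8.85%. These counts moved with the window. Within 100 bp TATAAA was found at 4 genes (13.5% of thresholded windows). Within 50 bp GAGAGA was found at 1 gene (13.8% of thresholded windows). Windows were also centred on each replicate's own strongest summit, an alternative chosen after the data were seen. In replicate 1, 8 of 10 had an E2F match and 7 of 10 a CHR match, but 4 and 5 of 8 had one in replicate 2. The share of all summits with a match was not worked out for windows centred this way. At pcn-1, where the summit of replicate 2 lay 47 bp farther from the gene than the combined one, that window lost its E2F matches. A match is a run of letters, and whether any factor binds there was not measured.

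**Figure D4:**
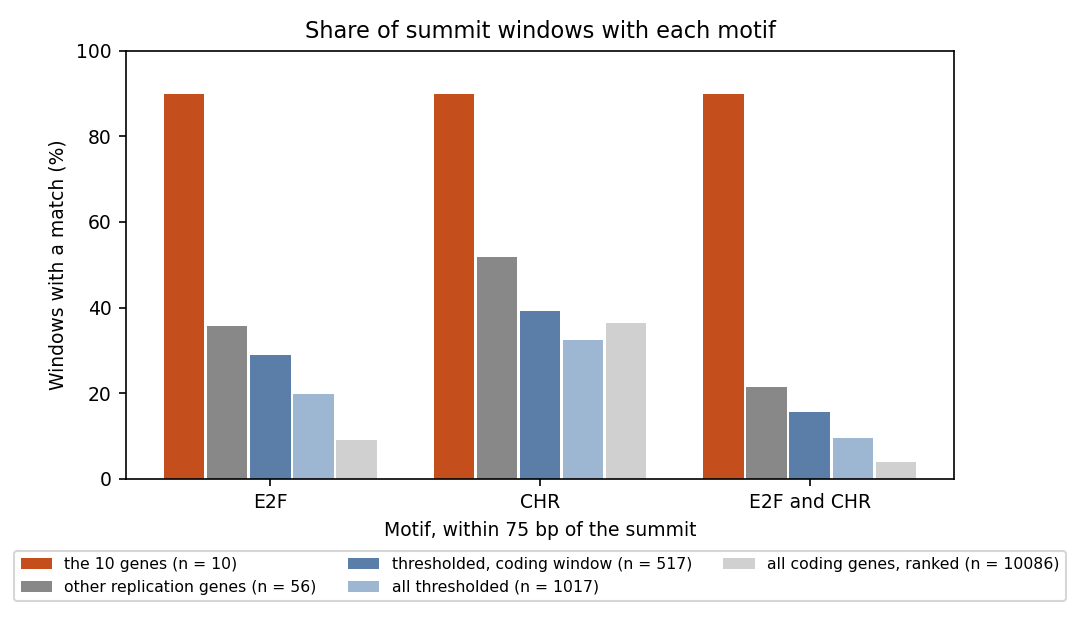
Share of windows (y axis, %) with an E2F match, a CHR match or both within 75 bp of the summit, for the 10 genes, the other replication genes, thresholded summits in a coding window, all thresholded summits and the ranked summits of all coding genes. For both motifs together the bars stand at 90.0%, 21.4%, 15.7%, 9.44% and 4.02%.

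Elsewhere in the replication pathway, thresholded peaks were spread over several steps. Of 61 other replication genes, 10 (16.4%) had a summit in the combined thresholded list, against 3.59% of all coding genes. Fork protection had 3 of 4: clsp-1 (claspin, signal 137), tim-1 (Timeless, 133) and ctf-4 (a replisome hub, 82.7). Helicase assembly and firing had 2 of 11, cye-1 (cyclin E, 88.0) and dnsn-1 (a helicase assembly factor, 80.0). Clamp loading had 1 of 6, rfc-4 (66.1), and the polymerases and primase had 1 of 9, pri-1 (74.6), a primase subunit gene whose summit was 948 bp away. Chromatin assembly had 1 of 4, unc-85, a homologue of the histone chaperone ASF1, with 239. The group of ubiquitin ligase and unloading factors had 2 of 11, cdc-48.1 (the p97 ATPase, 320) and cdt-2 (which helps destroy CDT-1, 76.7).

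None of the 8 genes of origin recognition and helicase loading (orc-1 to orc-5, cdc-6, cdt-1 and gmn-1), which load the mcm-2 to mcm-7 ring, had a thresholded summit, and with 3.59% of all coding genes having one, 0 of 8 does not set these genes apart. The strongest of these combined ranked summits was that of orc-1, at 45.5, near the 43.5 of mcm-5, and cdt-1 had no ranked summit in its window. The 3 genes of Okazaki fragment maturation and the 4 of nucleotide supply had none either, although rnr-2, a ribonucleotide reductase gene, was in the conservative list. Several of the 10 thresholded summits, including all 3 at fork protection genes, also lay in the window of a gene outside the list. That of tim-1 lay 50 bp from the 5' end of sls-2.8. That of clsp-1 lay 8 bp from the 5' end of eef-2, and that of ctf-4 27 bp from that of eef-1G, both translation elongation factor genes. The summit of cye-1 lay 507 bp from cye-1 but 141 bp from the 5' end of pqn-21. Those of dnsn-1, rfc-4 and cdc-48.1 lay in such windows as well. With each peak given to the nearest coding gene alone, 4 of the 61 kept a peak, against 2.53% of all coding genes, while the 5 of the 10 described genes all kept theirs. E2F and CHR matches together occurred at 3 of these 10 thresholded summits, those of cye-1, clsp-1 and cdc-48.1. The share was 15.7% over all thresholded summits in a coding gene's window. Both motifs were found at 12 of 56 ranked summits of the other replication genes (21.4%), against 4.02% for all coding genes. These differences were not tested.

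**Figure D5:**
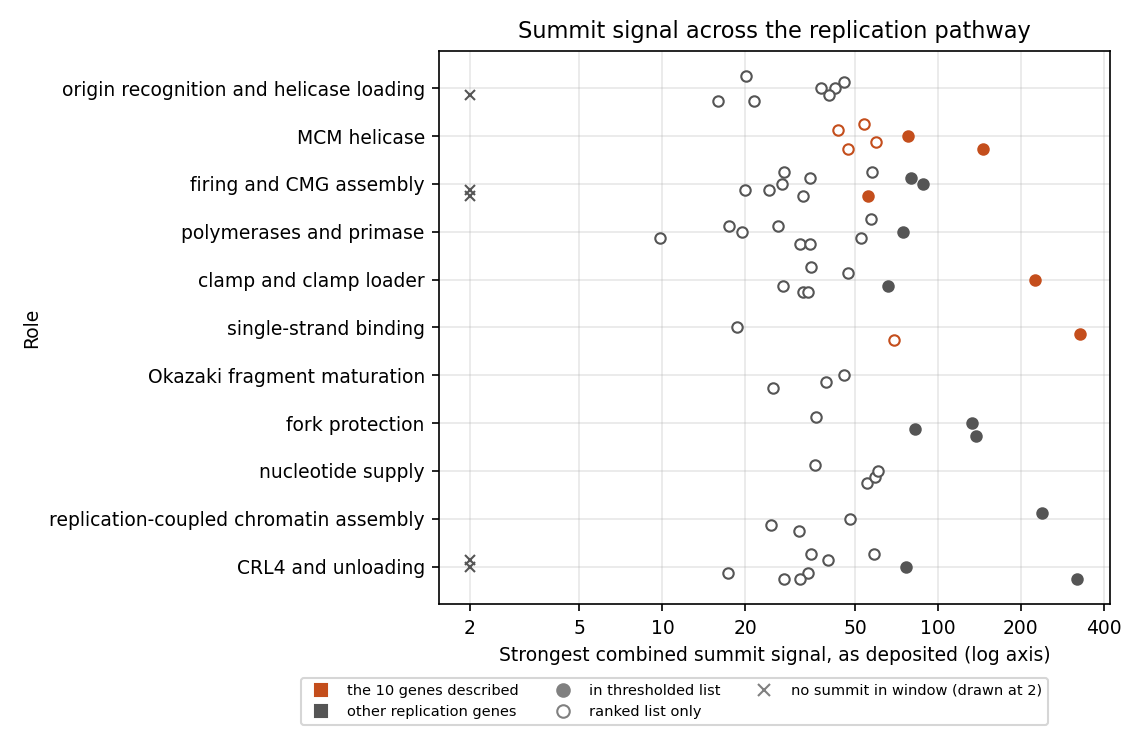
Signal of the strongest combined summit (x axis, log scale, as deposited) for 71 replication genes by role, with the 10 genes described in orange and the other 61 in grey; filled symbols passed the threshold, and crosses drawn at 2 had no summit in the window. The orange symbols run from 43.5 to 327, and the filled grey symbols are spread over several roles.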

How the data were processed

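Peak lists were deposited for immunoprecipitation of tagged C17E4.6 from whole worms, in 1 group of 2 biological replicates. Coordinates are on ce11 (WBcel235), per the labels. Notes deposited beside each sample name alignments of the replicates, plus other files of unstated kind, as the sources of the lists. No source used here names the aligner or the peak caller. The signal and the score of each peak are the authors' own values. In the ranked lists the deposited −log10 of the IDR gave the score to within 1.00 unit, up to a cap of 1000. Summits were placed at the start plus the deposited offset. Another 8 columns in each of the 2 combined ranked lists, which carry no label of a sample, were left aside. The combined thresholded list lacked 70 of the 1087 ranked peaks at or above its lowest score. The lists hold no counts of reads, so depth and its precision are unknown.

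Gene models were those of Ensembl release 115, and bases were taken from the RefSeq genome of the same assembly, both read with Python 3.11.15 and pandas 2.3.3. Each gene had its outermost annotated 5' end. Of 63 other replication genes listed, 61 were found, those missing from Ensembl by symbol being looked up by locus tag. No test was run, since there was 1 group. The window rule and the motif search were tested on simulated data. The genes named were the 10 genes, those sharing their summits, up to 12 other replication genes with a thresholded summit, and the 3 genes nearest in signal to the strongest of the 10. Genes of the replication list named without such a summit (orc-1 to orc-5, cdc-6, cdt-1, gmn-1 and rnr-2) were named after their values were seen. The members, lists and motifs were chosen with earlier results of these data known. Alternatives were other lists, thresholds, windows, 5' ends, matching distances and motif flanks.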

Additional observations from a re-analysis of the deposited data

How the results depend on the processing

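The count of 5 of 10 genes with a thresholded summit was 4 with a window of 500 bp upstream, against 2.79% of coding genes. It was 3 with one of 250 bp upstream and 100 bp downstream (without mcm-10 and rpa-2), against 1.68%. Among the peaks above the median signal of the list it was 3 (without mcm-4 and mcm-10), against 2.17%. With the looser score minimum of 540 (IDR 0.0501) on the combined ranked list it was 8, against 5.65%, as mcm-3, mcm-6 and rpa-1 joined. The replicates' own thresholded lists, used in place of the combined one, gave 4 for replicate 1 (2.25% of coding genes) and 3 for replicate 2 (1.77%). The count stayed at 5 with the conservative list, the wider window, all transcript 5' ends, 1 gene per peak and the ranked peaks that reach the threshold. Under these settings the share of all coding genes ran from 2.53% (1 gene per peak) to 4.67% (the wider window). The count of 10 of 61 other replication genes was 4 with the window of 250 bp (1.68% of coding genes) and 4 with 1 gene per peak (2.53%). It was 5 in the list of replicate 1 (2.25%) and 6 in that of replicate 2 (1.77%). Summits were matched in both replicates at 4 genes within 50 bp and at 7 within 200 bp, with no share over all coding genes worked out. E2F and CHR matches each numbered 8 within 50 bp, where 15.6% and 21.8% of thresholded windows had one. They each numbered 9 within 100 bp, where these shares were 22.9% and 43.4%. With windows centred on each replicate's own strongest summit, E2F matches numbered 8 of 10 in replicate 1 and 4 of 8 in replicate 2. CHR matches numbered 7 of 10 and 5 of 8. This alternative was chosen after the data were seen, and shares over all summits were not worked out for it. No paired analysis was possible because there was 1 group. The lists give no depth, so what deeper sequencing would add is unknown.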
